A study of Homo sapiens with 42 samples.

Results

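The RNA of HAP1 cells labelled neil2 was compared with that of HAP1 cells labelled neil1, both kept in media alone. HAP1 is an adherent, near-haploid human line derived from a chronic myeloid leukaemia. The labels name the genotypes only as neil2 and neil1, and series notes describe the cells as deficient for the DNA glycosylases of those names. The comparison used 6 of the 42 libraries of the series: neil2_11.1, neil2_11.2 and neil2_12, and neil1_12, neil1_13.1 and neil1_13.2. They were all of the media libraries of these genotypes, chosen by label and not by any measured value. The same replicates given 200 µM buthionine sulfoximine (BSO), an inhibitor of glutathione synthesis, for 48 h (3 neil2 and 3 neil1 libraries) and 3 wild type (wt) media libraries (1.1, 1.3 and p1) of the same naming style were set beside them. Replicates that share the number before the point (neil2_11.1 and neil2_11.2, neil1_13.1 and neil1_13.2) were taken here as 1 line each, so that each genotype held 2 lines: 11 and 12 of neil2, and 12 and 13 of neil1. Values are given in that order of replicates throughout. The labels do not say how the lines were edited, whether each is a single clone, or whether they passed through the same steps as wt.

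NEIL1 and NEIL2 are bifunctional DNA glycosylases of base excision repair: each cuts an oxidised base out of DNA and then nicks the strand. NEIL1 acts on double-stranded DNA and is linked to replication, and NEIL2 prefers bubbles and single-stranded stretches and is linked to transcribed genes. The study set such lines beside wt to look at glutathione and cell death. A direct comparison of neil2 with neil1 asks how edited lines of the same panel differ from each other.

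The 6 libraries held 30.6 M to 30.7 M reads and 18001 to 18282 genes with reads. Levels are the authors' normalized read counts, in which 1 read is worth 0.949 to 1.02. They are not divided by gene length, so levels are compared between libraries and not between genes. Differences are log2 differences of value + 1, neil2 minus neil1, which understate the change of genes near 0. A gene was called at an adjusted p under 0.05 (limma on 6 libraries, Benjamini-Hochberg over 14188 genes). Of the cell type markers read, VIM, of vimentin, lay between 14080 and 21207 in the 6 libraries, while PTPRC, the pan-leukocyte CD45 gene, stayed between 0 and 2.04. Another blood marker, CD34, was present and uneven. It had 92.0, 157 and 19.3 in neil2, against 716, 78.1 and 50.3 in neil1 and 20.1, 22.6 and 19.4 in wt. The keratin gene KRT8 also varied within genotypes, with 4915, 7040 and 3107 in neil2, against 6993, 1311 and 1745 in neil1 and 1000, 1500 and 798 in wt.

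The glycosylase genes themselves were read first. NEIL2 had 306, 300 and 328 normalized reads in the neil2 libraries, against 606, 491 and 495 in neil1 and 487, 613 and 561 in wt. The neil2 values lay below all others and did not overlap them, but the RNA was not absent. The log2 difference was -0.76 ± 0.11 (SE, n = 3 and 3) and missed the threshold on 6 libraries (limma adjusted p = 0.13). NEIL1 had 559, 648 and 481 normalized reads in neil2, against 284, 361 and 513 in neil1 and 310, 403 and 353 in wt. The neil1 values overlapped those of neil2 through neil1_13.2, and the difference was 0.57 ± 0.21 (limma adjusted p = 0.437). NEIL3, which neither label names, had 694 to 740 in neil2 and 749 to 777 in neil1, a difference of -0.08 ± 0.07 (limma adjusted p = 0.668). A count over a whole gene does not show a small edit, so NEIL1 RNA neither bears out nor contradicts the label of the neil1 lines.

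In media, 9 of the 14188 genes tested passed (0.0634%). Of these 7 rose in neil2 (0.0493% of genes) and 2 fell (0.0141%). RHOD, TRPC4 and GJA1 were expressed in neil2 lines and close to 0 in neil1 lines, and IL12RB2 and FOLH1 showed the opposite. TMEM47, IGFBP5, MOCOS and FEZ1 were expressed in both and higher in neil2. All 9 had neil2 and neil1 values that did not overlap, as 16.4% of all genes tested also did. In bulk RNA, fewer cells that express a gene and less RNA per cell cannot be told apart.

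RHOD, TRPC4 and GJA1, 3 of the 4 called genes with a group mean under 5, had an entry in RefSeq's promoter table (GRCh38.p14). Their promoters, from 250 bases before to 50 after the start, are shown because these genes differed between nearly silent and expressed. Capitals mark every CG pair, the site of DNA methylation, which was not measured here. RHOD lies at chr11:67056597-67056896 on the plus strand, TRPC4 at chr13:37869723-37870022 on the minus strand and GJA1 at chr6:121435396-121435695 on the plus strand.
RHOD: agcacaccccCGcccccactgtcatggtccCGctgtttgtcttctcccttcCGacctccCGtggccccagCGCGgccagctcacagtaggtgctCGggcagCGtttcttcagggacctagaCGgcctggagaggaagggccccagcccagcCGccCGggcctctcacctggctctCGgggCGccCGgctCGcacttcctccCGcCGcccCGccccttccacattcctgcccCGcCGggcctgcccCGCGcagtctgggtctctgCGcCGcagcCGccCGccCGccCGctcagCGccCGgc
TRPC4: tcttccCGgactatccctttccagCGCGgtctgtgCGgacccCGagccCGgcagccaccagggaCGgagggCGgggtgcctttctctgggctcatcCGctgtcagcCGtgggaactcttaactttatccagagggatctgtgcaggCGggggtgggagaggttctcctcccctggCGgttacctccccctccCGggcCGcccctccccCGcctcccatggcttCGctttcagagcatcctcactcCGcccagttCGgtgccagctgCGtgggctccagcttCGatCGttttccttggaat
GJA1: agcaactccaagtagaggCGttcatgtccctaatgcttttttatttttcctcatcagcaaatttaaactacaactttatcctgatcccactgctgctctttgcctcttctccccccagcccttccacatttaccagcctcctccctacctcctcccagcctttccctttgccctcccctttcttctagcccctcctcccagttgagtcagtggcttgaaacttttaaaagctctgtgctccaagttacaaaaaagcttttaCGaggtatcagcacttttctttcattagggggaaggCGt
The RHOD window holds 30 CG pairs, and 22.4% of the 35116 promoters in the table hold as many or more. The TRPC4 window holds 21, a number reached by 39.5% of them, and the GJA1 window holds 3, reached by 81.8%. The median promoter holds 14, so genes with a difference of this kind had both CG-rich and CG-poor starts.

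RHOD encodes a small GTPase of endosomes and the actin cytoskeleton. It had 117, 113 and 397 normalized reads in neil2, against 0, 0 and 0 in neil1 and 0, 0.941 and 0 in wt. Line 12 of neil2 was the highest, and neither neil1 nor wt held more than 1 read. Against a floor of 3 reads per library, RHOD was at least 71.4-fold higher in neil2 by the mean and at least 39.3-fold without neil2_12, and the fitted log2 difference was 7.45 ± 0.51 (limma adjusted p = 0.0043). TRPC4, a calcium-permeable cation channel, had 155, 156 and 168 in neil2, against 6.12, 3.85 and 2.85 in neil1 and 47.0, 58.4 and 37.9 in wt. The 3 genotypes did not overlap, with wt between the edited lines. Its difference of 4.98 ± 0.28 (limma adjusted p = 0.00322) was the only one of the 9 to pass whichever of the 6 libraries was left out.

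GJA1 encodes connexin 43, which forms gap junctions. It had 71.7, 43.0 and 108 normalized reads in neil2, against 5.10, 1.93 and 3.80 in neil1 and 15.3, 33.9 and 11.7 in wt. Again wt lay between them, and the difference was 4.00 ± 0.44 (limma adjusted p = 0.0471). TMEM47, a membrane protein of cell junctions, had 5527, 4168 and 6064 in neil2, against 2084, 1342 and 1628 in neil1 and 516, 446 and 234 in wt. It differed from the other 8 in that wt lay below both edited genotypes, so both were above wt and neil2 more so. The difference between neil2 and neil1 was 1.65 ± 0.18 (limma adjusted p = 0.0471).

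IGFBP5, a secreted protein that binds insulin-like growth factors, had 5762, 4321 and 4655 normalized reads in neil2, against 1980, 1881 and 2055 in neil1. The wt libraries had 5479, 3389 and 3013, nearer to neil2. The difference was 1.31 ± 0.10 (limma adjusted p = 0.00947). MOCOS, the enzyme that adds sulphur to the molybdenum cofactor of xanthine dehydrogenase and aldehyde oxidase, had 330, 423 and 373 in neil2, against 177, 140 and 154 in neil1 and 238, 279 and 258 in wt. Its difference was 1.25 ± 0.14 (limma adjusted p = 0.0471), with wt in between. FEZ1, an adaptor of kinesin transport known from axon growth, had 2538, 2612 and 2471 in neil2, against 1846, 1881 and 1842 in neil1. At 0.45 ± 0.05 (limma adjusted p = 0.0471) it had the smallest called difference and close agreement within each genotype.

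IL12RB2, the signalling chain of the interleukin-12 receptor, had 7.75, 9.77 and 3.87 normalized reads in neil2, against 189, 251 and 254 in neil1 and 89.2, 121 and 136 in wt. It fell by 4.90 ± 0.33 on the log2 scale (limma adjusted p = 0.0043). The wt values lay between the edited lines and nearer to neil1. FOLH1, the glutamate carboxypeptidase also called prostate-specific membrane antigen, had 0.969, 0 and 0 in neil2, against 27.5, 110 and 104 in neil1 and 34.5, 35.8 and 39.9 in wt. Line 12 of neil1 was the lowest of its genotype. The difference was -5.79 ± 0.61 (limma adjusted p = 0.0471), and it is uncertain how far reads of its near-identical copy FOLH1B entered the count.

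All 9 kept their direction when any 1 library was left out, but most calls did not hold without some of them. RHOD, IL12RB2 and IGFBP5 missed the threshold without neil1_13.1 (limma adjusted p = 0.0629, 0.0629 and 0.106) and without neil1_13.2 (0.0942, 0.0942 and 0.12). GJA1, TMEM47, MOCOS, FEZ1 and FOLH1 passed only without neil2_12 or without neil1_12. Without neil1_13.1 their limma adjusted p-values were 0.25, 0.25, 0.271, 0.271 and 0.281, without neil1_13.2 0.362, 0.385, 0.362, 0.362 and 0.362, without neil2_11.1 0.266, 0.266, 0.159, 0.266 and 0.13, and without neil2_11.2 0.0986, 0.0803, 0.288, 0.284 and 0.239. The same 5 genes missed the threshold when the line was a random block (limma adjusted p = 0.111, 0.111, 0.137, 0.115 and 0.0926), where RHOD, TRPC4, IL12RB2 and IGFBP5 passed (0.00425, 0.00425, 0.00425 and 0.0409).

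**Figure D1:**
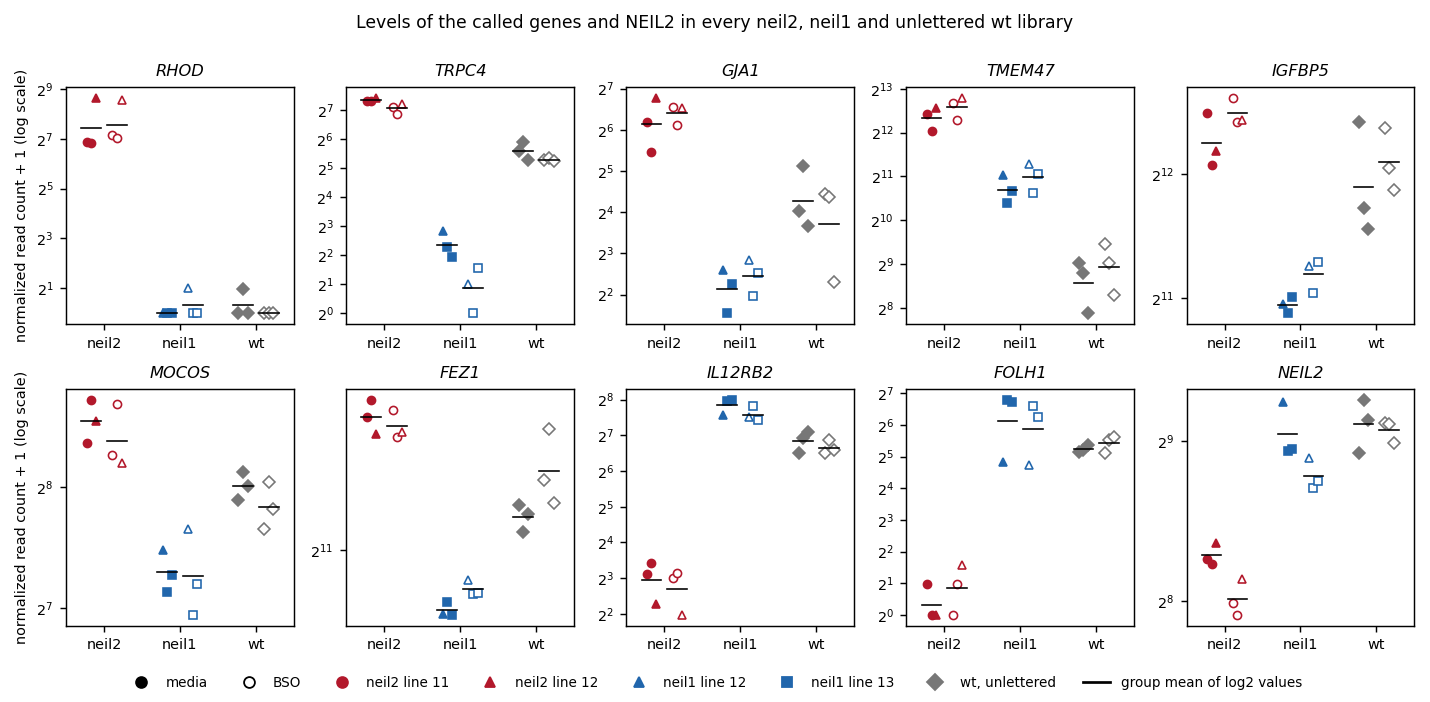
Normalized read count + 1 (log axis, scaled per panel) of the 9 called genes and NEIL2 in every neil2, neil1 and wt library of the unlettered names, filled in media and open with BSO, with shapes for lines and bars for the mean of the log2 values. In each panel the neil2 points do not overlap the neil1 points, and RHOD in neil1 and wt sits at or next to 0 reads.

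The position of wt was read without a test. Of the 7 genes that rose in neil2, wt had a mean between the edited genotypes in 6 and below both in 1, and lay nearer to neil2 in 4 and nearer to neil1 in 3. For both that fell, wt lay between and nearer to neil1. Over all genes tested wt was between in 28.3%, and nearer to neil1 in 62.7% and to neil2 in 37.3%. The called genes were selected for a difference between the genotypes, which leaves more room for wt between them. Their counts therefore describe the genes and test nothing.

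Separate libraries of the same replicates gave 6 called genes with BSO (0.0423% of 14188, limma on 6 libraries), 4 higher in neil2 (0.0282%) and 2 lower. RHOD, TRPC4, GJA1, IGFBP5 and IL12RB2 were called in both treatments, 5 of the 9 media genes and 5 of the 6 with BSO. PSMB8, a subunit of the immunoproteasome, was called with BSO alone. It had 5.03, 8.89 and 7.80 in neil2 with BSO, against 62.6, 127 and 161 in neil1 with BSO. Its media values of 7.75, 8.79 and 14.5 in neil2, against 46.9, 188 and 116 in neil1, had the same direction (log2 difference -3.21, limma adjusted p = 0.149).

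With BSO all 9 media genes kept their direction, with no overlap between genotypes (15.7% of all genes tested did not overlap with BSO). TRPC4 had a log2 difference of 6.19 with BSO (limma adjusted p = 0.00343), where neil1 held 1.03, 0 and 1.91 reads against 135, 116 and 145 in neil2. RHOD differed by 7.23 and IL12RB2 by -4.87 (limma adjusted p = 0.00343 for each). TMEM47 with 1.59 (limma adjusted p = 0.0672), FOLH1 with -5.01 (0.0702), FEZ1 with 0.38 (0.146) and MOCOS with 1.12 (0.263) missed the threshold with BSO. Tested directly, the difference between the treatments was called for no gene by limma on 12 libraries, edgeR or DESeq2 (206 genes had an unadjusted p under 0.05 by limma, and the smallest adjusted p was 1). These tests leave out the pairing of media and BSO libraries by replicate. A limma fit with a replicate block also called 0 genes, with 1268 at an unadjusted p under 0.05. As the lines are the same, the BSO libraries repeat the measurement but not the choice of lines.

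**Figure D2:**
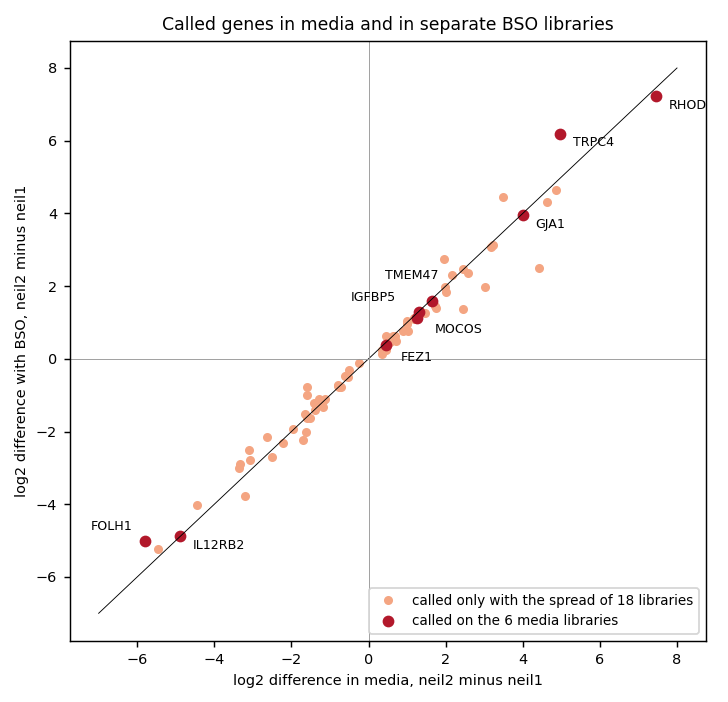
Log2 difference, neil2 minus neil1, in media (x) and with BSO (y) for the 76 genes called in media with the error of 18 libraries, with the 9 called on the 6 libraries in dark red and the line of equal differences. RHOD lies at 7.45 and 7.23 and IL12RB2 at -4.90 and -4.87, and all 76 genes have the same sign in both treatments.

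With the error taken from all 18 unlettered libraries (neil2, neil1 and wt, in media and with BSO, 1 term per group), 76 genes passed in media (0.536% of 14188 genes), 39 higher in neil2 (0.275%) and 37 lower (0.261%). All 9 genes above were among them. This fit takes the 18 libraries as independent, although media and BSO libraries of the same replicate deviated together. It and the other fits of this paragraph also count replicates taken as 1 line as separate. With the replicate name as a random block 130 genes passed (0.916%), 73 of them among the 76. With only the 9 media libraries of neil2, neil1 and wt, 41 passed (0.289%), 24 higher and 17 lower, 38 of them among the 76 and all 9 genes above included. Both of these fits were chosen after seeing the data. Of the genes named below, CDH3, IKBKE, SIX2, OLIG2, MAPT, PRPH, GRM8, LRFN5, DLK1, QPRT, SELENBP1 and NDUFAF4 were not called with the 9 media libraries (limma adjusted p from 0.0528 for DLK1 to 0.172 for NDUFAF4), and NDUFAF4 was not called with the random block (0.0523). Of the 76, 56 differed at least 2-fold, 28 in each direction, against 3.14% of all genes, and 51 were also called with BSO in that fit, which called 0.677% of all genes with BSO. The 76 were selected on this same difference, and the BSO calls share the error and the lines, so these counts describe the genes and test nothing. The genes named from this set were chosen after their values were seen, and their adjusted p-values are from limma on 18 libraries. NEIL2 was among the 37 lower genes (limma adjusted p = 0.0018).

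**Figure D3:**
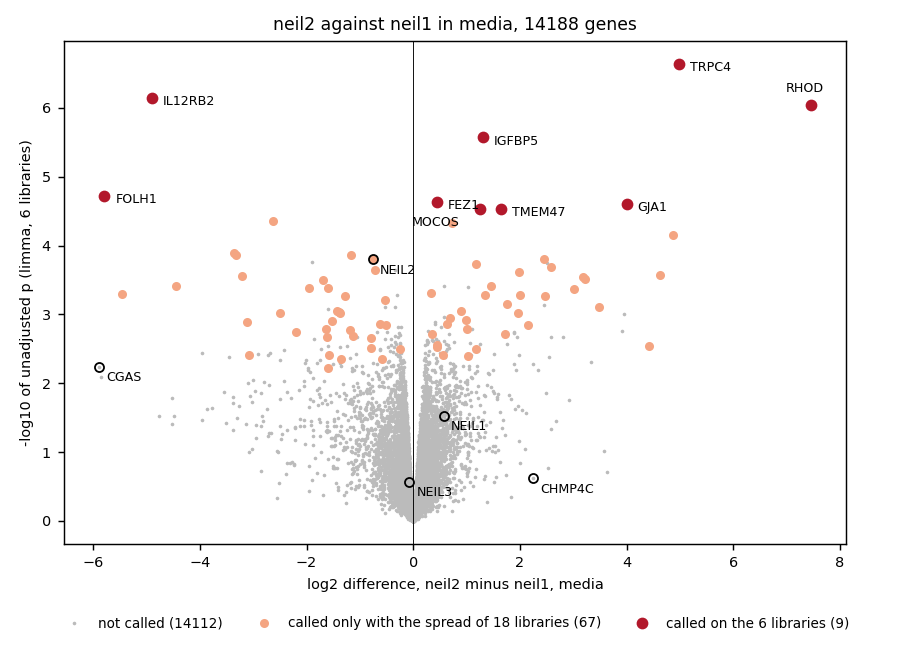
Log2 difference, neil2 minus neil1 in media (x), against -log10 of the unadjusted limma p on 6 libraries (y) for 14188 genes. The 9 called genes (dark red) reach from -5.79 to 7.45, 67 further genes (light red) passed with the error of 18 libraries alone, and CGAS at -5.89 passed neither.

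Among genes of adhesion and matrix, CDH3, which encodes P-cadherin, had 473, 492 and 368 normalized reads in neil2, against 198, 49.1 and 95.9 in neil1 (log2 difference 2.16, limma adjusted p = 0.037). SDK1, a homophilic adhesion molecule of synapses, had 172, 140 and 42.6 in neil2, against 10.2, 12.5 and 7.59 in neil1 (3.22, limma adjusted p = 0.02). AEBP1, an extracellular collagen-binding protein, had 60.1, 145 and 375 in neil2, against 6.12, 2.89 and 3.80 in neil1 (4.87, limma adjusted p = 0.00231). Each of these was higher in every neil2 library, but by unequal amounts in the lines: line 12 was lowest for SDK1 and highest for AEBP1. EPCAM, the epithelial adhesion molecule, went the other way with 7.75, 21.5 and 29.0 in neil2, against 176, 136 and 258 in neil1 and 61.4, 88.5 and 61.2 in wt (-3.35, limma adjusted p = 0.00235). CDH1, the main epithelial cadherin, stayed between 0.977 and 7.59 in all 6 libraries.

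STING1 and IKBKE were higher in neil2 and PSMB8 lower. STING1, the adaptor that responds to cyclic GMP-AMP made on cytosolic DNA, had 178, 182 and 80.3 normalized reads in neil2, against 30.6, 43.4 and 28.5 in neil1 (limma adjusted p = 0.014 on 18 libraries). On 6 libraries the 95% interval of its log2 difference was 1.2 to 2.81 and it was not called (limma adjusted p = 0.18). The wt libraries had 115, 154 and 146, within the range of neil2 and above neil1. IKBKE, a kinase that activates interferon regulatory factors, had 52.3, 68.4 and 50.3 in neil2, against 23.4, 10.6 and 16.1 in neil1 (1.76, limma adjusted p = 0.0379). PSMB8, given above, was lower in neil2 (limma adjusted p = 0.0018), where wt with 99.7, 83.8 and 128 resembled neil1.

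CGAS, the enzyme that makes the signal STING1 reads, was not called on 6 libraries or on 18 libraries (limma adjusted p = 0.366 and 0.105), although its fitted difference of -5.89 was the lowest of all 14188 genes. With the replicate name as a random block, a fit chosen after seeing the data, it passed (limma adjusted p = 0.0174). With the 9 media libraries it did not (0.141). It had 0.969 and 1.95 in neil2 line 11 and 188 in line 12, against 711, 525 and 608 in neil1 and 411, 454 and 406 in wt. The values did not overlap, but on the log2 scale line 12 of neil2 lay nearer to neil1 than to line 11. With BSO the neil2 values were 1.01, 3.95 and 190, against 538, 437 and 529 in neil1. Of the 27 tested genes of the list for cytosolic DNA sensing and interferon response, none passed on 6 libraries, where 0.0634% of all genes did. By the fit to 18 libraries STING1 was the 1 member called, against 0.275% of all genes called higher. In that list 5 had all neil2 values above neil1 and 3 all below, against 7.61% and 8.8% of all genes, and the median difference was 0.07. Among them IFITM1, an interferon-induced membrane protein, had 96.9, 78.1 and 67.7 in neil2, against 41.8, 28.9 and 44.6 in neil1 (1.06, limma adjusted p = 0.321 on 6 libraries, 0.0643 on 18 and 0.0395 with the random block). OAS2, which makes oligoadenylates on double-stranded RNA, had 43.6, 60.6 and 41.6 in neil2, against 68.3, 140 and 120 in neil1 (-1.11, limma adjusted p = 0.367 on 6 libraries, 0.0622 on 18 and 0.022 with the random block).

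Of 4 transcription regulators named from this set, PAX6, SIX2 and LMO3 were lower in neil2 and OLIG2 was higher. PAX6, a paired-box factor of eye and brain, had 55.2, 46.9 and 86.1 normalized reads in neil2, against 144, 223 and 203 in neil1 and 212, 193 and 243 in wt (log2 difference -1.61, limma adjusted p = 0.0233). For PAX6 neil1 resembled wt and neil2 stood below both. SIX2, a homeobox factor of kidney progenitors, differed by -0.80 (limma adjusted p = 0.0403) and LMO3, a LIM-only cofactor, by -1.37 (limma adjusted p = 0.014). OLIG2, the oligodendrocyte lineage factor, was higher, with 606, 549 and 456 in neil2, against 313, 372 and 351 in neil1 (0.63, limma adjusted p = 0.0375).

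INA, MAPT, GRM8 and LRFN5, known from neurons, were lower in neil2. PRPH was higher, as were SDK1 of synapses and FEZ1 of axon growth, given above. INA, the intermediate filament internexin, had 782, 813 and 651 normalized reads in neil2, against 1251, 1332 and 1100 in neil1 and 1405, 1356 and 1361 in wt (log2 difference -0.72, limma adjusted p = 0.0018). MAPT, which encodes tau, had 258, 242 and 247 in neil2, against 357, 386 and 344 in neil1 (-0.54, limma adjusted p = 0.0331). PRPH, the intermediate filament peripherin, was higher, with 57.1, 80.1 and 74.5 in neil2, against 36.7, 21.2 and 36.1 in neil1 (1.17, limma adjusted p = 0.047). The glutamate receptor GRM8 differed by -1.63 (limma adjusted p = 0.0233) and the synaptic adhesion gene LRFN5 by -3.08 (limma adjusted p = 0.0379). LRFN5 had 79.3 in neil2 line 12, against 14.5 and 6.84 in line 11, so its lines were far apart. None of the 19 tested genes in the list of neural markers passed on 6 libraries, where 0.0634% of all genes did. By the fit to 18 libraries 2 were lower in neil2 and none higher, where 0.261% and 0.275% of all genes were.

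Of the genes of growth signals and the cell cycle named from this set, CCND2, HHIP and DLK1 were lower in neil2, and CALCR and NRG2 higher. CCND2, the D-type cyclin 2, had 105, 230 and 190 normalized reads in neil2, against 933, 520 and 559 in neil1 and 322, 461 and 451 in wt (log2 difference -1.96, limma adjusted p = 0.0164). HHIP, which binds and inhibits hedgehog ligands, had 131, 131 and 191 in neil2, against 346, 325 and 337 in neil1 (-1.17, limma adjusted p = 0.00727). DLK1, a membrane ligand of the Notch pathway, had 62.0, 45.9 and 58.0 in neil2, against 267, 132 and 167 in neil1 (-1.70, limma adjusted p = 0.0433). The calcitonin receptor gene CALCR had 185, 184 and 162 in neil2, against 68.3, 27.9 and 44.6 in neil1 and 56.6, 47.1 and 41.8 in wt (1.98, limma adjusted p = 0.00832). NRG2, a ligand of ERBB receptors, differed by 1.17 (limma adjusted p = 0.00622). ERBB2, a receptor kinase of that family, had 99.8, 136 and 102 in neil2, against 763, 240 and 282 in neil1. It missed the threshold in both fits (-1.73, limma adjusted p = 0.333 on 6 libraries and 0.0631 on 18), but passed with the replicate name as a random block (0.00892).

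SLC16A7 and NDUFAF4 were lower in neil2, and QPRT, KCNE3 and SELENBP1 higher. SLC16A7, a monocarboxylate transporter for lactate and pyruvate, had 0, 2.93 and 7.74 normalized reads in neil2, against 45.9, 342 and 183 in neil1 and 39.3, 60.2 and 32.1 in wt (log2 difference -5.47, limma adjusted p = 0.0233). QPRT, an enzyme of NAD synthesis from tryptophan, had 1712, 2451 and 1405 in neil2, against 872, 818 and 1055 in neil1 (0.99, limma adjusted p = 0.0403). KCNE3, an accessory subunit of potassium channels, had 38.7, 46.9 and 6.77 in neil2 and 0 in all 3 neil1 libraries, at least 10.5-fold higher by the mean against the floor of 3 reads, but at least 2.31-fold in neil2_12 alone (limma adjusted p = 0.014). SELENBP1, a selenium-binding methanethiol oxidase, had 73.6, 132 and 28.0 in neil2, against 14.3, 0.964 and 0 in neil1 (4.41, limma adjusted p = 0.0254). For both KCNE3 and SELENBP1 line 12 was the lowest in neil2. NDUFAF4, an assembly factor of respiratory complex I, had the smallest of the 76 differences, with 1567, 1418 and 1526 in neil2, against 1825, 1799 and 1744 in neil1 (-0.25, limma adjusted p = 0.0486).

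For the 39 genes higher in neil2 by this fit, wt lay between the edited genotypes in 32, above both in 1 and below both in 6. For the 37 lower genes, wt lay between in 26, above both in 9 and below both in 2. It was nearer to neil1 for 26 of the 39 and 28 of the 37. The wt libraries also entered this fit's error, so these counts describe the genes and test nothing.

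Glutathione and ferroptosis are named in the study's title, and no gene of these lists passed between neil2 and neil1, where 0.0634% of all genes did. GCLC, the catalytic subunit of glutamate-cysteine ligase, had 1798, 1484 and 1527 normalized reads in neil2, against 1583, 2023 and 1798 in neil1 (log2 difference -0.17, limma adjusted p = 0.579). GCLM, its modifier subunit, had 1097, 1032 and 1126 in neil2, against 1168, 1256 and 1182 in neil1, without overlap but with a difference of -0.15 (limma adjusted p = 0.466). The 95% interval of GCLM ran from -0.30 to 0.00 and that of GCLC from -0.42 to 0.09. GSS, glutathione synthetase, differed by 0.03 (interval -0.09 to 0.14) and GSR, glutathione reductase, by 0.01 (-0.10 to 0.13). SLC7A11, the cystine importer, differed by 0.04 (-0.28 to 0.36) and GPX4, the lipid peroxide-reducing enzyme that holds back ferroptosis, by -0.04 (-0.30 to 0.22). All of these intervals lie within a 2-fold change in either direction, which does not show that the levels were equal.

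NQO1, a quinone reductase and NRF2 target, had 3454, 3453 and 2803 normalized reads in neil2, against 3313, 3540 and 3549 in neil1, a difference of -0.11 (limma adjusted p = 0.668). Both edited genotypes lay above the wt range of 2177 to 2456. AIFM2, a ferroptosis suppressor that reduces coenzyme Q, had 1247, 1294 and 1153 in neil2, against 1153, 1082 and 1045 in neil1, with a log2 difference of 0.17 (limma adjusted p = 0.458). ACSL4, which builds the polyunsaturated lipids that ferroptosis oxidises, had 2306, 2324 and 2006 in neil2, against 1902, 1896 and 1839 in neil1, without overlap, and its difference of 0.23 did not pass (limma adjusted p = 0.403). GSTM2, a glutathione transferase, was the one gene of the 35 tested in the list for glutathione synthesis and use to differ 2-fold, with 206, 285 and 106 in neil2, against 85.6, 45.3 and 80.7 in neil1 (1.43, limma adjusted p = 0.373). Near-identical transferase genes may share its reads. None of those 35 genes, of 27 NRF2 targets or of 23 ferroptosis genes passed, where 0.0634% of all genes did. With so few calls over all genes, the lack of a call in lists of this size says little about them. The list medians were 0.01, -0.03 and -0.02, against -0.01 over all genes.

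**Figure D4:**
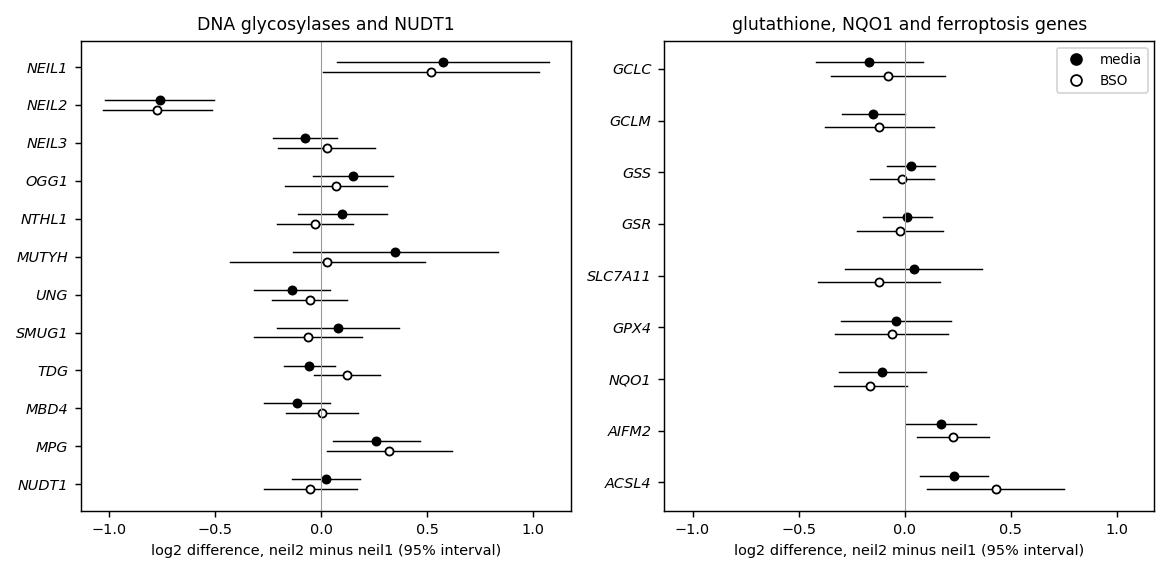
Log2 difference, neil2 minus neil1, with its 95% interval from limma on 6 libraries, for 12 DNA glycosylase and nucleotide pool genes (left) and 9 glutathione, NQO1 and ferroptosis genes (right), filled in media and open with BSO. NEIL2 lies at -0.76 in media and -0.77 with BSO, while the intervals of GSS, GSR, GPX4 and SLC7A11 span 0 in both treatments.

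Of the other DNA glycosylases, MPG, which removes alkylated bases, had 1073, 1240 and 1086 normalized reads in neil2, against 1036, 907 and 897 in neil1 (log2 difference 0.26, limma adjusted p = 0.418). OGG1, which removes 8-oxoguanine, differed by 0.15 and NTHL1, which like the NEIL enzymes removes oxidised pyrimidines, by 0.10. MUTYH, UNG, SMUG1, MBD4 and NUDT1 differed by 0.35, -0.14, 0.08, -0.11 and 0.02. None of the 9 genes in this list passed, nor did any of 16 genes for the later steps of base excision repair or of 19 DNA damage and p53 targets. As 0.0634% of all genes passed, this says little about lists of this size.

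Of the 40 gene lists, 38 held no called gene. IL12RB2 was the 1 called member of the 16 tested NF-kB and cytokine genes, and TRPC4 the 1 called member of the 87 tested ion channel genes, where 0.0634% of all genes were called. The list median lay within 0.25 of 0 on the log2 scale for 38 lists. The 13 mitochondrially encoded subunits had a median of 0.50 with a range of 0.31 to 0.59, and none passed. Mitochondrially encoded genes took 3.04%, 3.49% and 2.32% of the reads in neil2, against 2.20%, 1.68% and 2.48% in neil1, so the genotypes overlapped through neil2_12 and neil1_13.2 alone. Whether this share bears on other differences was not tested. With BSO the median of these genes was 0.16. The blood lineage list had a median of -0.30 over 13 genes, none of which passed. In it TAL1, a transcription factor of blood stem cells, had 700, 612 and 150 in neil2, against 1526, 1599 and 1595 in neil1 and 1122 to 1323 in wt (-1.97, limma adjusted p = 0.366). ITGA2B, the platelet integrin chain CD41, stood the other way, with 239, 271 and 197 in neil2, against 170, 67.5 and 92.1 in neil1 (1.19, limma adjusted p = 0.368). Of its 13 tested genes, 1 had all neil2 values above neil1 and 3 all below, against 7.61% and 8.8% of all genes. TAL1 and ITGA2B were chosen after their values were seen.

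Lines of 1 genotype differed from each other about as much as lines of different genotypes. A neil2 and a neil1 library differed at least 2-fold in 473 to 1037 genes over the 9 pairs. Libraries from the 2 lines of 1 genotype differed in 583 to 765 genes over 4 pairs, and the pairs from 1 line differed in 244 genes in neil2 and 197 in neil1. With 1 mean per line, limma called no gene (583 genes had an unadjusted p under 0.05). On the recovered reads of the 6 libraries, edgeR called 3 genes (0.0211%) and DESeq2 189 (1.33%). The 3 were TRPC4, IL12RB2 and IGFBP5 (edgeR adjusted p = 0.00169, 0.00397 and 0.0165). RHOD and FOLH1 missed the threshold by edgeR (adjusted p = 0.173 and 0.106), as did GJA1, TMEM47, MOCOS and FEZ1 (edgeR adjusted p = 0.0619 for each).

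**Figure D5:**
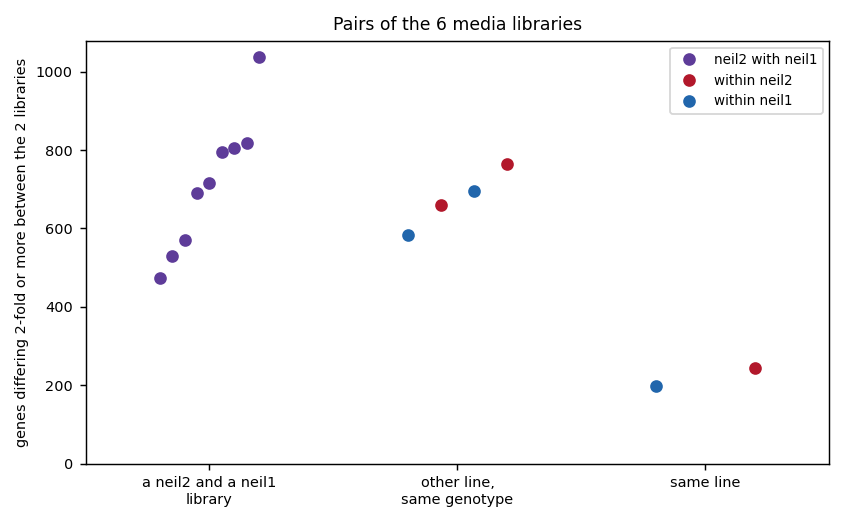
Number of genes (of 14188) that differ 2-fold or more between 2 media libraries, for each of the 15 pairs, grouped by whether the pair crosses genotypes, crosses lines within a genotype or lies within a line. The pairs across genotypes span 473 to 1037 and overlap those across lines (583 to 765), and both same-line pairs lie below 250.

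Some genes set 1 line apart. They were taken, after their values were seen, as genes with a gap of at least 8-fold between 1 line and all of the other 3, in media and with BSO. In line 11 of neil2, 22 genes were lower and none higher. CLDN1, a tight junction protein, had 7.75 and 5.86 in neil2 line 11 and 400 in neil2 line 12, against 298 to 378 in neil1 and 229 to 307 in wt. SLC19A3, a thiamine transporter, had 0 and 0 in neil2 line 11 and 102 in line 12, against 227 to 309 in neil1. CGAS and PTPRN2, a phosphatase-like protein of secretory vesicles, followed the same pattern.

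In line 12 of neil2, 4 genes were higher and 1 lower. COL11A1, a fibrillar collagen chain, had 6626 there and 12.6 and 1.95 in line 11 of neil2, against 0.949 to 8.15 in neil1 and 0.941 to 7.78 in wt. FBXO17, an F-box protein, had 769 in line 12 and 3.87 and 2.93 in line 11, against 0 to 2.04 in neil1. Both genes were high in 1 line of neil2 and not in the other. ZNF28, a zinc finger gene, was the gene lower in line 12, with 35.8 there and 317 and 313 in line 11, against 299 to 393 in neil1.

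In the neil1 lines, 3 genes were higher and 2 lower in line 12, and 5 were higher in line 13. CHMP4C, an ESCRT-III subunit of the abscission checkpoint, had 249, 258 and 302 normalized reads in neil2, against 1.02 in neil1 line 12 and 312 and 289 in line 13. The wt libraries, at 0.959, 4.71 and 0.972, resembled neil1 line 12. The genotype difference of 2.25 for CHMP4C (limma adjusted p = 0.647) therefore rested on line 12 of neil1, and was -0.16 without it. NEFL, the light neurofilament chain, had 0.969, 6.84 and 1.93 in neil2, against 448 and 403 in neil1 line 13 and 2.04 in line 12.

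The distal part of chromosome 15 was examined because line 12 of neil1 had stood apart there in earlier results of these data. For the 315 tested genes beyond 50 Mb the median log2 difference was 0.06, and 68.6% were higher in neil2, against 47.7% of all genes. Line 12 of neil1 had a median of -0.14 relative to wt there, in media and with BSO, and line 13 had -0.01 in media. Relative to neil1 line 12 the median of neil2 was 0.15, and relative to line 13 it was 0.01. NEIL1 itself lies in this part (chr15:75347039-75357115), and its lowest neil1 media value, 284, was that of line 12. Whether that value and the regional median are linked was not tested. None of the 76 genes lay on chromosome 15, and the 162 genes before 50 Mb had a median of 0.00.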

How the data were processed

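The deposited table holds the authors' normalized signal: read counts per gene divided by 1 size factor per library. The submitters' processing notes name Trim Galore, HISAT2, SAMtools, featureCounts and DESeq2 as tools and GRCh38 (hg38) as the build. The tools' versions, like the strand setting, are not given in the sources used, so antisense and overlapping genes are uncertain. Of 30182 entries, 9667 carry no gene symbol (0.874% to 1.03% of reads in the 6 libraries) and were left out of tests. Whole reads were recovered for 100% of values (relative tolerance 1e-06).

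From the table, limma 3.58.1 (R 4.3.3, intensity trend) was fitted to log2(value + 1) of the 14188 named genes whose mean over the 6 media libraries was at least 10. The BSO libraries and the difference between treatments were tested on the same genes. Alternatives included edgeR 4.0.16 and DESeq2 1.42.0 on the recovered reads, other scalings, filters and pseudocounts, line means and omitted libraries. On simulated data, limma called 75% of 100 genes changed 2-fold and 100% of 100 changed 4-fold, with 14 false calls. Its libraries were drawn independently with no shared line, so it says nothing on calls from related libraries. Replicate names pair media with BSO libraries: deviations from group means correlated with r = 0.552 to 0.862, and 6 of 6 correlated best with their own name. The labels call the replicates biological but do not say that neil2_11.1 and neil2_11.2, or neil1_13.1 and neil1_13.2, come from separate lines, so p-values may count related libraries as independent.

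The members and gene lists were chosen with earlier results of these data known. Genes were named by rule (the NEIL genes, up to 15 rises and 15 falls past the threshold with a mean of 50 or more, called list members, and a set of glutathione, ferroptosis and glycosylase genes whatever their test). Genes from the fit to 18 libraries, line-specific genes and others named without a call were chosen after their values were seen. Some genes are not reported here. Gene and promoter positions are from RefSeq (GRCh38.p14), and 10585 of the 14188 genes matched a promoter.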

Additional observations from a re-analysis of the deposited data

Results flagged for a closer look

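TDG, the thymine DNA glycosylase, was picked out because the genotypes stood in opposite order in the treatments. It had 3952, 3664 and 3938 normalized reads in neil2 in media, against 4108, 3952 and 3954 in neil1, and 4198, 3693 and 3834 in neil2 with BSO, against 3470, 3653 and 3637 in neil1 with BSO. The order in media rests on a near tie, 3951.8 in neil2_11.1 against 3952.1 in neil1_13.1. Neither log2 difference was called, -0.06 in media and 0.12 with BSO (limma adjusted p = 0.692 and 0.552). The log2 difference in media minus that with BSO was -0.179 (limma on 12 libraries without the pairing by replicate, unadjusted p = 0.0428, adjusted p = 1), which fails the correction over 14188 genes.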

How the results depend on the processing

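In media, 9 genes were called. Other pseudocounts gave 9 and 9, TMM 9 and equal totals 8. The count was 0 with 1 mean per line, 3 by edgeR, 189 by DESeq2 (105 higher in neil2, 84 lower), 76 with 18 libraries (130 with the replicate name as a random block and 41 with the 9 media libraries, both chosen after seeing the data), 169 with all 42 libraries, 4 with the line as a random block, 4 with the minimum of 10 set on the mean of all libraries, 4 with a minimum of 50, 4 with no filter, 3 without neil1 line 13 and 21 without neil2 line 11. Leaving out 1 library gave 1 to 346 calls: 346 without neil2_12, which leaves 1 line of neil2, and 58 without neil1_12, but 1 without neil1_13.1 or neil1_13.2 and 4 without neil2_11.1 or neil2_11.2. DESeq2, the fit to 18 libraries and the omission of neil2_12 or neil1_12 each kept the same 9 genes. The cause was not tested.

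With BSO, 6 genes were called. The count was 0 with 1 mean per line (646 at an unadjusted p under 0.05), 0 with no filter (1856), 168 by DESeq2, 96 with 18 libraries (230 with the name as a random block, 29 with the 9 BSO libraries), 257 with all 42 libraries, 3 without neil1 line 13 and 27 without neil2 line 11. Leaving out 1 library gave 2 to 393 calls, with 393 without neil2_12 and 51 without neil1_12. For the difference between treatments the fit with a replicate block also called 0 genes (1268 at an unadjusted p under 0.05), so the pairing changed no call.

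Each genotype is known from 2 lines, so a difference between genotypes and one between these lines cannot be told apart. RHOD and KCNE3 had 0 reads in the neil1 media libraries, so their fold bounds rest on the floor of 3 reads. The fitted differences of these genes, and that of FOLH1 with 0.969, 0 and 0 in neil2, depend on the pseudocount.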
